A study of Mus musculus with 18 samples.

Results

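The genes described here belong to the integrated stress response and to the supply of amino acids: the ATF4 type of stress response, serine, folate and proline synthesis, and amino acid transport. They were taken by symbol from a list of 33 named genes, all of which were found among the 56413 genes of the count table. Of the 33, 30 were abundant enough to test, as were 14076 genes in all. Cth and Cbs, enzymes that make cysteine from homocysteine, and Stc2, a secreted glycoprotein induced by stress, were not tested. They had 18, 33.7 and 49 estimated counts over all libraries, and none exceeded 0.91 CPM (counts per 1e6 TMM-scaled counts) in any library. The values come from bulk RNA sequencing of mouse basophils, the granulocytes that carry the high-affinity IgE receptor and release histamine and cytokines when antigen links their IgE. TTP-KO cells are labelled as lacking tristetraprolin (TTP, encoded by Zfp36), an RNA-binding protein that promotes the decay of messenger RNAs with AU-rich elements, and WT cells were their controls. Bone marrow cells of both genotypes were cultured in 0.3 ng/mL interleukin-3 for 7 days. Anti-TNP IgE (TNP is a hapten) was added on day 6 at 1 µg/mL, and CD49b-positive cells were then enriched with magnetic beads. Libraries of each genotype followed control ovalbumin (OVA) for 2 h, TNP-coupled ovalbumin (TNP-OVA) for 2 h or TNP-OVA for 4 h, both at 10 ng/mL, with 3 libraries in each of the 6 groups and 50000 cells in each sample. The labels give neither the altered part of the gene nor the age of the mice. Whether replicate libraries represent different animals or cultures is not stated either, and the spread behind each p-value is that between libraries, possibly technical. There was no control at 4 h, so stimulus and time in culture cannot be told apart in the comparison of 4 h with control.

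When unfolded protein, lack of amino acids or other stresses activate kinases of the translation factor eIF2, such as PERK (Eif2ak3) and GCN2 (Eif2ak4), general translation falls and the transcription factor ATF4 is made from its messenger RNA more efficiently. ATF4 then induces amino acid transporters, asparagine synthetase, serine and one-carbon enzymes, and regulators such as CHOP (Ddit3), TRIB3 and GADD34 (Ppp1r15a), the last of which returns eIF2 to its unphosphorylated state. ATF4 is thus controlled largely at translation, which RNA counts do not measure. Activated immune cells are known to raise several of the same transporters to take up leucine, glutamine, cystine and arginine.

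Library totals ran between 5516600 and 12733000 estimated counts. The 10 basophil marker genes were all expressed in each group, with summed levels between 22539 and 30771 CPM per library. Zfp36 RNA was not lower in TTP-KO libraries (224 ± 4.46 CPM in TTP-KO control and 237 ± 11.4 CPM in WT control, SD, n = 3; edgeR adjusted p = 0.601) and was higher in them at 2 h (log2 difference 0.33 ± 0.05, adjusted p = 0.000316), so it does not check the genotype labels, on which every direction between genotypes rests. The libraries also differed in composition between conditions. The 50 most abundant genes took 26.6% to 27.8% of counts in the control libraries, 32.8% to 33.5% at 2 h and 30.6% to 31.7% at 4 h. Counts were therefore scaled by TMM, a trimmed mean of log ratios between libraries, and every change below is relative to the typical gene. Scaling by library totals alone shifted the median log2 fold change of all genes to -0.37 in each genotype at 2 h, and to -0.12 in TTP-KO and -0.13 in WT at 4 h. The main changes under that scaling are given beside the results.

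Antigen raised 15 of these genes at 2 h in both genotypes, and 10 of the 15 were lower at 4 h than at 2 h in both. The 2 h libraries enter both comparisons, so choosing genes high at 2 h favours a later fall, and the 10 are a description only. The shares of all genes called in both genotypes were not counted. At 2 h in TTP-KO cells 17 of the 30 tested members were higher than control and 2 lower, together 63.3%, against 34.5% of all genes tested (17.8% higher and 16.6% lower). In WT cells 16 were higher and 2 lower, together 60%, against 35.1% (17.8% and 17.3%). Calls are edgeR quasi-likelihood tests with a Benjamini-Hochberg adjusted p under 0.05 over all genes tested. The median log2 fold change of the 30 was 0.45 in TTP-KO and 0.48 in WT, where the median over all genes was -0.03 and -0.05. At 4 h 10 members were higher and 6 lower than control in TTP-KO, together 53.3%, against 35% (18.3% and 16.7%). In WT 9 were higher and 6 lower, together 50%, against 38% (19.6% and 18.4%). Between the stimulated time points, 1 member was higher and 16 lower at 4 h than at 2 h in each genotype (56.7% in both). Over all genes that share was 30.8% in TTP-KO (14.6% higher and 16.2% lower) and 31.1% in WT (15.2% and 15.9%). Of the 15 members called higher at 2 h in both genotypes, 8 were still above control at 4 h in both, with the same control libraries in both comparisons. Mthfd2 and Nupr1 were above control at 2 h and below it at 4 h in both. Eif2ak4, Gpt2, Mthfd1l, Psph, Pycr1, Shmt1 and Slc1a4 were called in no comparison of time or stimulus. With library totals alone, 11 members were higher and 8 lower at 2 h in TTP-KO and 9 higher and 7 lower in WT, at medians of 0.11 and 0.15, against 8.65% of all genes higher and 45.9% lower in TTP-KO and 9.1% and 45.6% in WT. Between 2 h and 4 h 3 were then higher and 13 lower in TTP-KO, and 3 higher and 11 lower in WT, where the falls of Atf4 (-0.09, adjusted p = 0.173) and Ddit3 (-0.14, adjusted p = 0.201) were not called. Over all genes 32.9% were then higher and 8.79% lower in TTP-KO, and 32.8% and 8.46% in WT.

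**Figure D1:**
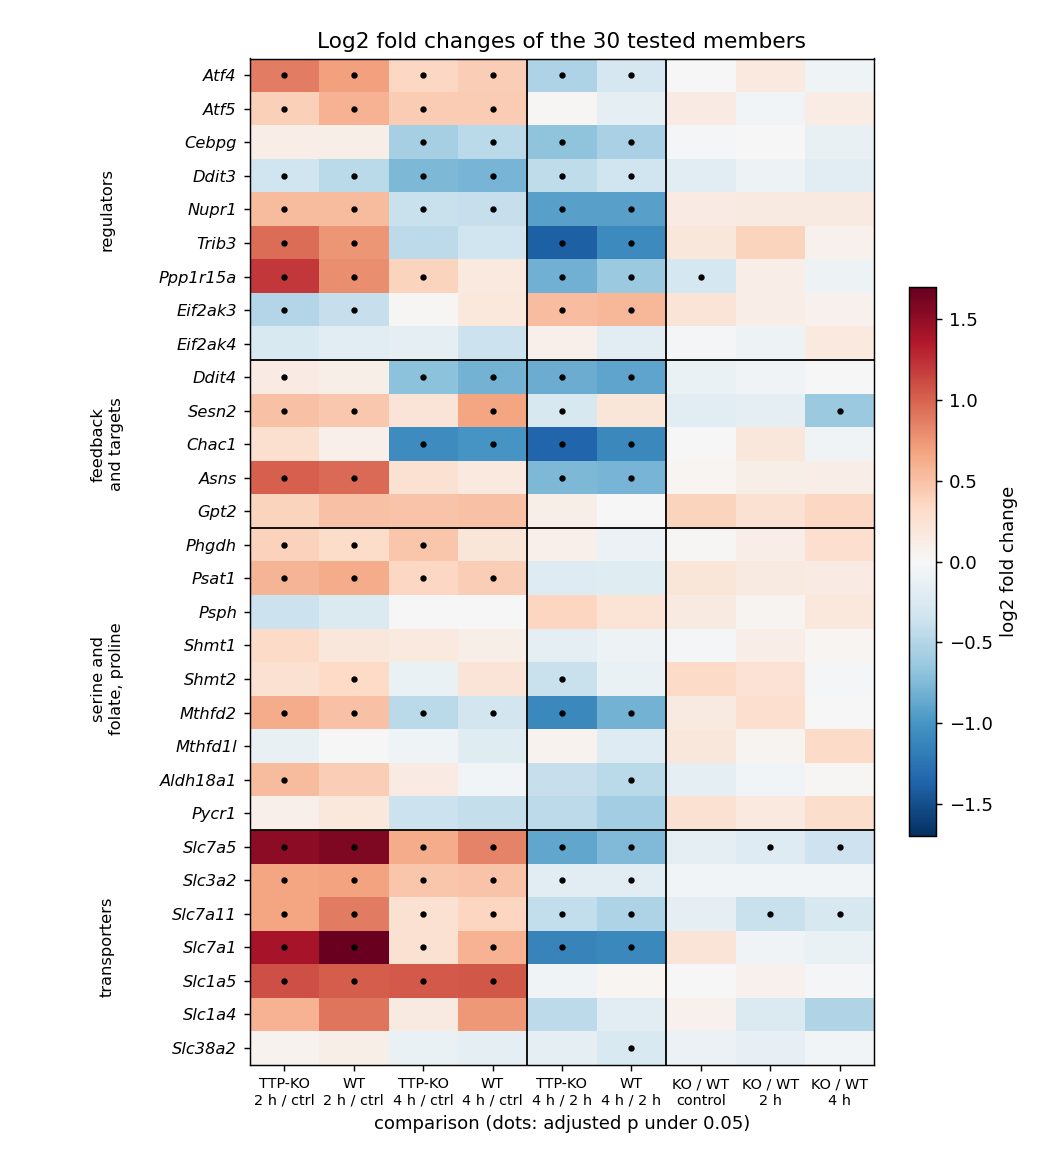
Log2 fold change of each tested member (rows, by role) in the comparisons of stimulation, time and genotype (columns), with dots where edgeR's adjusted p was under 0.05. Slc7a5, Slc3a2, Slc7a11, Slc7a1 and Slc1a5 rise at 2 h and at 4 h, Ddit3 is lower at both times, and the genotype columns hold dots for Slc7a11, Slc7a5 and Sesn2, and for Ppp1r15a in control.

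The largest rises among the members were in amino acid transporters, led at 2 h by Slc7a5 in TTP-KO and by Slc7a1 in WT. Of 7 tested, 5 were higher than control at 2 h and at 4 h in each genotype, with a median log2 fold change at 2 h of 0.68 in TTP-KO and 0.91 in WT. Over all genes 17.8% were higher at 2 h in each genotype, and at 4 h 18.3% in TTP-KO and 19.6% in WT. Under library totals alone all 5 remained called at 2 h in both genotypes, but at 4 h Slc7a1 (0.13, adjusted p = 0.207) and Slc7a11 (0.12, adjusted p = 0.0532) were not called in TTP-KO. Slc7a5 encodes LAT1, which carries leucine and other large neutral amino acids. Slc7a5 had 221, 220.2 and 236 CPM in TTP-KO control libraries, 617, 661 and 667 CPM at 2 h and 357, 329.6 and 365 CPM at 4 h. In WT it stood at 243, 239 and 269 CPM in control, 743, 726 and 787 CPM at 2 h and 435, 439 and 471 CPM at 4 h. Levels at 2 h exceeded all control and 4 h levels in each genotype, and those at 4 h stayed above control. The log2 fold change at 2 h was 1.52 ± 0.05 in TTP-KO and 1.58 ± 0.05 in WT (SE, edgeR adjusted p = 1.14e-19 and 3.98e-20), and at 4 h 0.63 ± 0.05 and 0.84 ± 0.05 (adjusted p = 5.52e-11 and 1.25e-13).

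Slc3a2 encodes the heavy chain (CD98) that LAT1 and the cystine carrier xCT need to reach the membrane. In TTP-KO libraries Slc3a2 stood at 368, 388 and 389 CPM in control, 603, 596 and 630.1 CPM at 2 h and 544, 506 and 544 CPM at 4 h. The WT levels were 402, 373 and 405 CPM in control, 642, 622 and 627 CPM at 2 h and 523, 554 and 571 CPM at 4 h. No stimulated library overlapped with a control library. The rise at 2 h was 0.68 ± 0.04 on the log2 scale in TTP-KO and 0.68 ± 0.04 in WT (edgeR adjusted p = 2.88e-13 and 2.35e-13), and at 4 h 0.48 ± 0.04 and 0.48 ± 0.04. Its drop between 2 h and 4 h of -0.20 in both genotypes was no longer seen with library totals alone, where the change was 0.0034 in TTP-KO and 0.0011 in WT.

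Slc7a11 encodes xCT itself, which exchanges cystine for glutamate and feeds glutathione synthesis. TTP-KO libraries had 111, 113 and 111 CPM of Slc7a11 in control, 177, 182 and 175 CPM at 2 h and 135, 129.8 and 135 CPM at 4 h. WT libraries had 129.7, 124 and 121 CPM in control, 222, 236 and 235 CPM at 2 h and 155, 168 and 159.9 CPM at 4 h. The 3 conditions did not overlap within either genotype. Over control at 2 h it rose by 0.67 ± 0.05 in TTP-KO and 0.89 ± 0.05 in WT (edgeR adjusted p = 3.29e-12 and 4.58e-15).

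Slc7a1 encodes CAT1, a carrier of arginine and lysine. Slc7a1 had 49.1, 51.3 and 52.3 CPM in TTP-KO control libraries, 139, 135 and 129 CPM at 2 h and 57.8, 63.3 and 62.3 CPM at 4 h. In WT it stood at 48.3, 45.8 and 38.0 CPM in control, 138, 143 and 140.3 CPM at 2 h and 59.8, 68.0 and 70.2 CPM at 4 h. Levels at 2 h were far above both other conditions, and those at 4 h lay just above control. It rose at 2 h by 1.40 ± 0.07 in TTP-KO and 1.68 ± 0.08 in WT on the log2 scale (edgeR adjusted p = 3.23e-15 and 6.66e-17), and changed between 2 h and 4 h by -1.14 ± 0.07 and -1.09 ± 0.07.

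Slc1a5 encodes ASCT2, a glutamine carrier. In TTP-KO libraries Slc1a5 stood at 53.2, 53.1 and 49.1 CPM in control, 108, 122 and 102 CPM at 2 h and 105, 113 and 103 CPM at 4 h. The WT levels were 53.2, 52.2 and 50.4 CPM in control, 118, 99.4 and 100.2 CPM at 2 h and 104, 108 and 112 CPM at 4 h. Unlike Slc7a1 it stayed up, and its 2 h and 4 h libraries overlapped in both genotypes. It rose at 4 h by 1.04 ± 0.07 in TTP-KO and 1.06 ± 0.07 in WT (edgeR adjusted p = 2.27e-12 and 1.48e-12), with changes between 2 h and 4 h of -0.06 ± 0.07 and 0.03 ± 0.07 (adjusted p = 0.594 and 0.783). With library totals alone Slc1a5 was called higher at 4 h than at 2 h in WT (0.23, edgeR adjusted p = 0.00932). Slc38a2, which encodes the neutral amino acid carrier SNAT2, and Slc1a4, a carrier of alanine, serine and cysteine, were not called over control. Slc38a2 averaged 89.6 ± 5.79 CPM at 2 h and 86.5 ± 7.04 CPM in control in TTP-KO, and 98.9 ± 10.9 and 92.5 ± 6.14 CPM in WT (SD, n = 3), and with library totals alone it was called lower at 2 h in both (-0.28 and -0.23). That scaling also called it lower than control at 4 h in both (-0.25 in TTP-KO and -0.29 in WT). With TMM, Slc38a2 was called lower at 4 h than at 2 h in WT (-0.26) and not in TTP-KO. The WT call ended with library totals alone (-0.06), and without replicate 3 of WT at 2 h or replicate 2 of WT at 4 h. Slc1a4 reached a log2 fold change at 2 h of 0.60 ± 0.43 in TTP-KO and 0.91 ± 0.43 in WT, at levels no higher than 3.79 CPM in any library (edgeR adjusted p = 0.312 and 0.103).

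**Figure D2:**
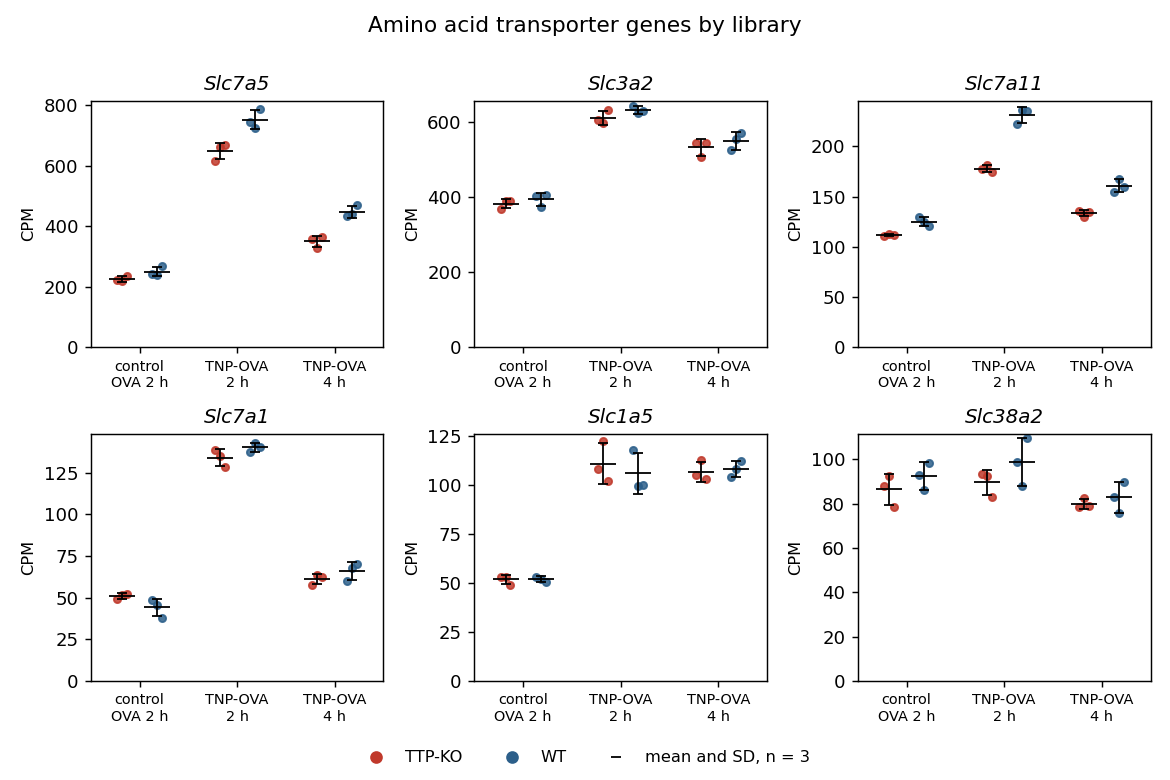
CPM of 6 amino acid transporter genes in each library (points) by condition, TTP-KO in red and WT in blue, with the mean and SD of 3 libraries as bars. In these TMM-scaled values Slc7a5, Slc7a11 and Slc7a1 peak at 2 h, Slc1a5 holds its level at 4 h and Slc38a2 stays near its control level. The TTP-KO points of Slc7a11 lie below the WT points in every condition.

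Among the 9 regulators, 5 rose and 2 fell at 2 h in each genotype. At 4 h 3 rose and 3 fell in TTP-KO, and 2 rose and 3 fell in WT. Over all genes 17.8% rose at 2 h in each genotype, and 16.6% fell in TTP-KO and 17.3% in WT. At 4 h these shares were 18.3% and 16.7% in TTP-KO, and 19.6% and 18.4% in WT. The rising genes at 2 h were Atf4, Atf5, Nupr1, Ppp1r15a and Trib3, and the falling ones Ddit3 and Eif2ak3, whose call in WT was lost in most of the alternatives. With library totals alone, Atf5 (0.07 in TTP-KO and 0.26 in WT) and Nupr1 (0.21 in both) were not called at 2 h, nor was Trib3 in WT (0.43, adjusted p = 0.0662). Atf4, Trib3, Asns, Nupr1 and the other members described by group means were picked after their values were seen. Atf4 was included as the factor that gives the response its name. TTP-KO libraries had 156, 155 and 162 CPM of Atf4 in control, 289, 299.5 and 276 CPM at 2 h and 205, 196 and 201 CPM at 4 h. WT libraries had 163, 163 and 149 CPM in control, 269, 253 and 247 CPM at 2 h and 201, 214 and 217 CPM at 4 h. The 2 h libraries lay above all others of their genotype, and the 4 h libraries between them and control. It rose at 2 h by 0.87 ± 0.05 in TTP-KO and 0.70 ± 0.05 in WT (edgeR adjusted p = 1.45e-14 and 2.29e-12).

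Ppp1r15a encodes GADD34, the subunit that directs a phosphatase to eIF2. Ppp1r15a had 81.3, 65.7 and 59.9 CPM in TTP-KO control libraries, 156, 160.4 and 155 CPM at 2 h and 89.9, 87.1 and 89.7 CPM at 4 h. In WT it stood at 80.2, 81.0 and 90.6 CPM in control, 153, 142 and 142 CPM at 2 h and 94.6, 94.2 and 94.1 CPM at 4 h. In both genotypes the 2 h libraries stood well above control and the 4 h libraries just above it. It rose at 2 h by 1.20 ± 0.07 in TTP-KO and 0.79 ± 0.07 in WT (edgeR adjusted p = 8.07e-14 and 4.61e-10), and at 4 h it was called in TTP-KO (0.38 ± 0.07, adjusted p = 0.000176) and not in WT (0.16 ± 0.07, adjusted p = 0.0757, or 0.0445 with no filter).

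Ddit3, which encodes CHOP, the transcription factor tied to cell death under lasting stress, moved the other way. In TTP-KO libraries Ddit3 stood at 74.3, 66.0 and 59.2 CPM in control, 56.4, 51.2 and 49.5 CPM at 2 h and 40.0, 36.2 and 40.2 CPM at 4 h. The WT levels were 72.8, 77.4 and 77.8 CPM in control, 51.0, 55.9 and 59.6 CPM at 2 h and 46.4, 43.5 and 41.7 CPM at 4 h. In each genotype the 3 conditions stepped down without overlap. At 4 h the log2 fold change was -0.77 ± 0.08 in TTP-KO and -0.79 ± 0.08 in WT (edgeR adjusted p = 1.96e-08 and 5.77e-09), after -0.34 ± 0.08 and -0.45 ± 0.08 at 2 h.

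Eif2ak3 encodes PERK, the eIF2 kinase of the endoplasmic reticulum. TTP-KO libraries had 14.9, 14.1 and 12.5 CPM of Eif2ak3 in control, 9.97, 8.28 and 11.2 CPM at 2 h and 12.4, 14.1 and 15.6 CPM at 4 h. WT libraries had 11.9, 11.3 and 12.2 CPM in control, 9.73, 9.40 and 8.09 CPM at 2 h and 13.3, 13.9 and 12.9 CPM at 4 h. It was the one member lower at 2 h and higher again at 4 h, by 0.52 ± 0.14 in TTP-KO and 0.56 ± 0.14 in WT between these times (edgeR adjusted p = 0.00593 and 0.00299). The fall at 2 h was -0.49 ± 0.14 in TTP-KO and -0.39 ± 0.15 in WT (adjusted p = 0.00772 and 0.0418). The WT call ended without any 1 of the 6 libraries compared (adjusted p between 0.0523 and 0.175), and also with RLE scaling (0.0576), no filter (0.0775), DESeq2 (0.143), the replicate number as a block (0.0524) and only the groups compared (0.111). Library totals alone kept it (0.000233). The TTP-KO call ended without replicate 2 of TTP-KO at 2 h (0.0616), which also ended the TTP-KO rise between 2 h and 4 h (0.0594).

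Trib3 encodes a pseudokinase that binds ATF4 and restrains it. Its levels were low. Trib3 had 9.20, 7.62 and 6.31 CPM in TTP-KO control libraries, 15.5, 11.4 and 17.3 CPM at 2 h and 4.75, 5.32 and 6.78 CPM at 4 h. In WT it stood at 5.90, 8.14 and 6.31 CPM in control, 11.4, 11.8 and 10.8 CPM at 2 h and 4.77, 5.21 and 6.00 CPM at 4 h. All 2 h libraries were above the control libraries of their genotype, and the 4 h libraries overlapped with control. The log2 fold change at 2 h was 0.94 ± 0.19 in TTP-KO and 0.75 ± 0.20 in WT (edgeR adjusted p = 0.000187 and 0.00289), and between 2 h and 4 h -1.39 ± 0.19 and -1.09 ± 0.19.

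Nupr1, a small stress-induced chromatin protein, averaged 22.1 ± 3.29, 32.4 ± 3.21 and 17.0 ± 2.55 CPM in TTP-KO control, at 2 h and at 4 h, and 20.0 ± 1.82, 29.3 ± 2.28 and 15.3 ± 2.44 CPM in WT. Its call below control at 4 h ended in TTP-KO without replicate 2 or 3 of control or of 4 h (edgeR adjusted p up to 0.156), and in WT without replicate 1 or 3 of control or replicate 3 of 4 h (up to 0.139). DESeq2 did not call it in TTP-KO (adjusted p = 0.0514). Cebpg, a partner of ATF4 on DNA, averaged 102 ± 1.64, 109 ± 2.73 and 68.3 ± 2.38 CPM in TTP-KO and 102 ± 4.23, 109.5 ± 2.74 and 74.6 ± 4.96 CPM in WT. With library totals alone it was called lower already at 2 h (-0.23 in both). It fell at 4 h under either scaling, with TMM log2 fold changes of -0.57 ± 0.06 in TTP-KO and -0.46 ± 0.06 in WT (edgeR adjusted p = 4.47e-09 and 1.74e-07). Atf5, a relative of ATF4 whose translation is controlled in the same way, rose by 0.43 ± 0.11 in TTP-KO and 0.44 ± 0.11 in WT at 4 h (edgeR adjusted p = 0.00321 and 0.00253). Its smaller TTP-KO rise at 2 h (0.40 ± 0.11) was not called without replicate 2 of TTP-KO control (adjusted p = 0.0654) or of TTP-KO at 2 h (0.0876). Eif2ak4, the kinase that senses uncharged tRNA, had log2 fold changes of -0.26 ± 0.17 in TTP-KO and -0.20 ± 0.17 in WT at 2 h (edgeR adjusted p = 0.247 and 0.399), and with library totals alone it was called lower (-0.60 and -0.52, adjusted p = 0.00353 and 0.00936).

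**Figure D3:**
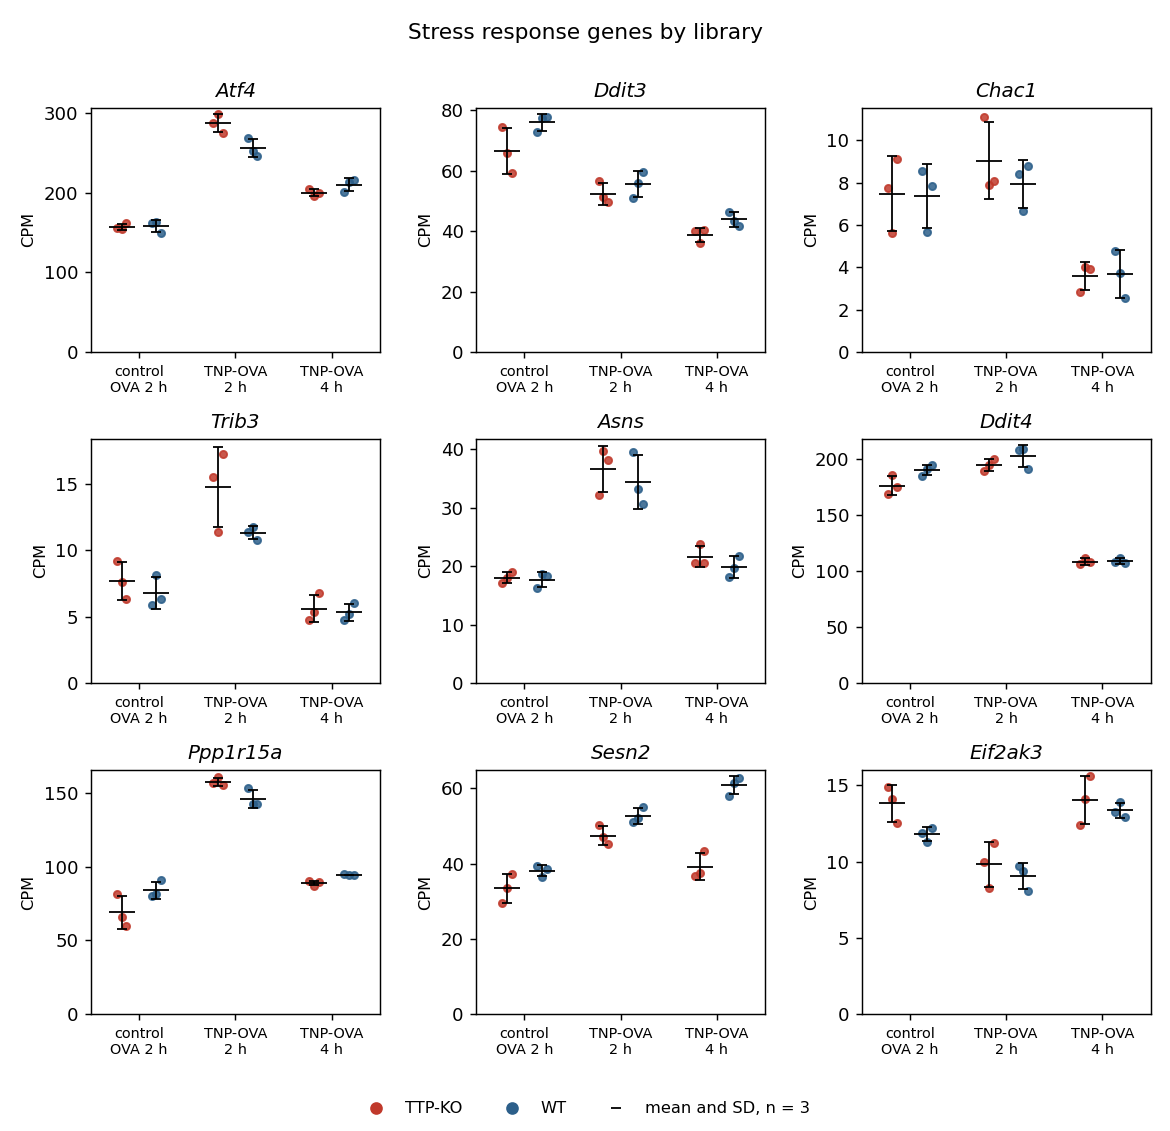
CPM of stress response members in each library (points) by condition, TTP-KO in red and WT in blue, with the mean and SD of 3 libraries as bars. Atf4 and Ppp1r15a peak at 2 h, Ddit3 falls at each step, and Sesn2 at 4 h averages 39.2 CPM in TTP-KO and 60.8 CPM in WT.

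Of the 5 other targets, Ddit4 and Chac1 were below control at 4 h in both genotypes. Ddit4 encodes REDD1, which inhibits the growth kinase complex mTORC1. In TTP-KO libraries Ddit4 stood at 169, 186 and 175 CPM in control, 189, 195 and 200.1 CPM at 2 h and 106, 112 and 108 CPM at 4 h. The WT levels were 185, 191 and 195 CPM in control, 208, 209 and 191 CPM at 2 h and 108, 112 and 107 CPM at 4 h. The 4 h libraries lay far below all others. The log2 fold change at 4 h was -0.70 ± 0.05 in TTP-KO and -0.80 ± 0.05 in WT (edgeR adjusted p = 4.09e-12 and 1.79e-13). The small rise at 2 h in TTP-KO (0.14 ± 0.05, adjusted p = 0.0244) turned into a fall with library totals alone (-0.19, adjusted p = 0.00191), and was not called without replicate 1 or 3 of TTP-KO control (0.156 and 0.0899) or replicate 2 or 3 of TTP-KO at 2 h (0.0652 and 0.109), nor with no filter (0.22). In WT Ddit4 was not called at 2 h (0.09), and with library totals alone it was called lower there too (-0.23, edgeR adjusted p = 0.000301).

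Chac1 encodes an enzyme that degrades glutathione. TTP-KO libraries had 7.74, 5.60 and 9.11 CPM of Chac1 in control, 11.1, 7.88 and 8.09 CPM at 2 h and 2.85, 4.02 and 3.90 CPM at 4 h. WT libraries had 8.56, 5.65 and 7.86 CPM in control, 8.41, 6.64 and 8.76 CPM at 2 h and 4.77, 3.73 and 2.54 CPM at 4 h. It was expressed at a low level, and its 4 h libraries were below all others of their genotype, while the 2 h and control libraries overlapped. At 4 h the log2 fold change was -1.07 ± 0.25 in TTP-KO and -1.002 ± 0.24 in WT (edgeR adjusted p = 0.00097 and 0.00142).

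Asns encodes asparagine synthetase, a long-used readout of ATF4. Asns had 17.1, 18.04 and 18.9 CPM in TTP-KO control libraries, 32.2, 39.6 and 38.1 CPM at 2 h and 20.6, 23.7 and 20.5 CPM at 4 h. In WT it stood at 16.3, 18.6 and 18.2 CPM in control, 39.6, 33.2 and 30.6 CPM at 2 h and 18.1, 19.8 and 21.8 CPM at 4 h. The 2 h libraries lay above all others, and at 4 h the gene was not called over control. It rose at 2 h by 1.02 ± 0.11 in TTP-KO and 0.96 ± 0.11 in WT (edgeR adjusted p = 1.80e-08 and 7.58e-08). Gpt2, the mitochondrial alanine aminotransferase, was not called (log2 fold change at 4 h 0.48 ± 0.26 in TTP-KO and 0.50 ± 0.27 in WT, edgeR adjusted p = 0.168 and 0.156).

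Sesn2 encodes sestrin 2, a leucine sensor that restrains mTORC1. In TTP-KO libraries Sesn2 stood at 29.6, 33.6 and 37.3 CPM in control, 50.3, 47.0 and 45.1 CPM at 2 h and 36.7, 37.5 and 43.3 CPM at 4 h. The WT levels were 39.3, 36.5 and 38.7 CPM in control, 51.0, 52.1 and 55.1 CPM at 2 h and 58.1, 61.5 and 62.9 CPM at 4 h. In TTP-KO the 2 h libraries were the highest of their genotype, whereas in WT the 4 h libraries were. Over control it rose at 2 h by 0.49 ± 0.09 in TTP-KO and 0.46 ± 0.09 in WT (edgeR adjusted p = 4.69e-05 and 8.59e-05), though neither rise was called with library totals alone (0.16 and 0.14, adjusted p = 0.132 and 0.18). At 4 h the log2 fold change over control was 0.22 ± 0.09 in TTP-KO and 0.67 ± 0.08 in WT (adjusted p = 0.0556 and 1.97e-07). With the replicate number as a block the TTP-KO rise was called too (0.22, edgeR adjusted p = 0.0471).

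ATF4 and C/EBP proteins bind together at composite elements, and the RefSeq promoters of the members (GRCm38.p6) were searched for the core TGATGNAA or its reverse TTNCATCA in the 250 bases before the gene's start, on either strand. The element was found in 5 of the 30 members with an entry (16.7%), and in 3.91% of the 27025 genes of the promoter table. The members were listed as genes of the ATF4 type of response. The higher share among them is therefore no separate evidence, and the difference was not tested. Slc7a5, Slc1a5 and Cth had no entry and were not searched, so the members with an entry are not the same set as those tested. The match is a description of letters and not a measured site. The 5 stretches are shown because these members hold the element, with the element in capitals, 11 bases on each side and the gene's strand 5′ to 3′.
Slc7a11 chr3:50443642-50443690 (minus strand): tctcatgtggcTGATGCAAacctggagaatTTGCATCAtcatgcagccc
Asns chr6:7693214-7693243 (minus strand): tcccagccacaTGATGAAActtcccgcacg
Chac1 chr2:119351038-119351067 (plus strand): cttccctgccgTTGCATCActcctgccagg
Nupr1 chr7:126625562-126625591 (minus strand): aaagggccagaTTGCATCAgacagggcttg
Pycr1 chr11:120643833-120643862 (minus strand): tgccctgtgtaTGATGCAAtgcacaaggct
Slc7a11 held 2 elements in opposite orientation, which start 66 and 47 bases before the gene's start, and 13 promoters (0.0396% of the 32851 in the table) held 2 or more. The single elements start 23 bases before the start in Asns, 193 in Chac1, 110 in Nupr1 and 103 in Pycr1. Slc7a11, Asns and Nupr1 rose over control at 2 h (Nupr1 not with library totals alone), and Chac1 and Nupr1 were below control at 4 h. Slc7a11, Asns, Nupr1 and Chac1 were all lower at 4 h than at 2 h in both genotypes, as were 14 of the 30 tested members in all. Over all genes 16.2% were lower at 4 h than at 2 h in TTP-KO and 15.9% in WT. The share of all genes lower in both was not counted. Pycr1 was called in no comparison of time or stimulus, at levels no higher than 1.38 CPM in any library.

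Of the 9 enzymes of serine, folate and proline synthesis, 4 were higher at 2 h in each genotype and none lower. Over all genes 17.8% were higher in each genotype, and 16.6% were lower in TTP-KO and 17.3% in WT. With library totals alone only Psat1 and Mthfd2 of these kept their call in TTP-KO, and only Psat1 in WT. Phgdh, the first enzyme of serine synthesis, rose at 2 h by 0.39 ± 0.10 in TTP-KO and 0.31 ± 0.10 in WT (edgeR adjusted p = 0.0028 and 0.0204). Neither Phgdh call held with library totals alone (0.06 and -0.02), and the WT call ended without replicate 1 of WT control (adjusted p = 0.0583), or without replicate 1 or 3 of WT at 2 h (0.0825 and 0.0542). Psat1, the second enzyme of that pathway, averaged 35.9 ± 1.68, 53.3 ± 4.31 and 45.8 ± 3.87 CPM in TTP-KO control, at 2 h and at 4 h, and 31.1 ± 3.43, 48.0 ± 2.71 and 41.5 ± 0.52 CPM in WT. It rose at 2 h by 0.57 ± 0.09 in TTP-KO and 0.63 ± 0.09 in WT (edgeR adjusted p = 6.11e-06 and 2.01e-06), with both calls kept under library totals alone, while the TTP-KO call at 4 h was not (0.22, adjusted p = 0.0581). Mthfd2, a mitochondrial folate enzyme, averaged 37.6 ± 2.33, 58.6 ± 6.12 and 27.4 ± 2.15 CPM in TTP-KO and 34.2 ± 2.97, 48.0 ± 1.38 and 27.4 ± 2.35 CPM in WT. Its log2 fold change was 0.63 ± 0.09 in TTP-KO and 0.50 ± 0.09 in WT at 2 h (edgeR adjusted p = 2.26e-06 and 0.000102), and -0.46 ± 0.10 and -0.31 ± 0.10 at 4 h (adjusted p = 0.000347 and 0.0119). The WT rise at 2 h was not called with library totals alone (0.17, adjusted p = 0.124), and the WT fall at 4 h ended without replicate 1 or 2 of WT control (0.0552 and 0.0546) or replicate 1 of WT at 4 h (0.0706). The proline enzyme Aldh18a1 was called at 2 h in TTP-KO (0.54 ± 0.18, adjusted p = 0.0239) and not in WT (0.42 ± 0.18, adjusted p = 0.0766), and the serine hydroxymethyltransferase Shmt2 in WT (0.34 ± 0.11, adjusted p = 0.0195) and not in TTP-KO (0.26 ± 0.11, adjusted p = 0.0633). The Aldh18a1 call ended without replicate 1 of TTP-KO control (0.109) or replicate 2 of TTP-KO at 2 h (0.167), and the Shmt2 call without replicate 2 of WT control (0.0858) or replicate 1 or 2 of WT at 2 h (0.0715 and 0.0547). Both also ended with library totals alone (0.353 and 0.916). With no filter Aldh18a1 was called in WT too (0.0157), and with RLE scaling Shmt2 in TTP-KO (0.0452), and their interactions with genotype were not called (0.12 ± 0.25 and -0.08 ± 0.16, adjusted p = 0.959 and 0.959). Between 2 h and 4 h Aldh18a1 was called lower in WT (-0.46) and Shmt2 in TTP-KO (-0.38). Both of these calls ended with library totals alone (-0.26 and -0.18, edgeR adjusted p = 0.236 and 0.197). Psph, Shmt1, Mthfd1l and Pycr1 had log2 fold changes between -0.37 and 0.33 at 2 h, none called, though with library totals alone Psph was called lower in both genotypes and Mthfd1l in TTP-KO.

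Between genotypes the members differed little. In TTP-KO control cells 1 of 30 members (3.33%) was lower than in WT and none higher, against 1.65% of all genes (0.412% higher and 1.24% lower). At 2 h 2 (6.67%) were lower and none higher, against 2.79% (0.909% and 1.88%), and at 4 h 3 (10%) were lower and none higher, against 5.22% (1.83% and 3.4%). The all-gene counts fell by over 1.5 times without 1 library, to 145 genes, against 232, without replicate 3 of TTP-KO control; to 228 and 259, against 393, without replicate 3 of WT or 1 of TTP-KO at 2 h; and to 466 and 484, against 735, without replicate 2 of WT or 3 of TTP-KO at 4 h. The member counts are small and rest on the genes named next. Slc7a11 was lower in TTP-KO, with the values given above, and its TTP-KO libraries lay below the WT libraries in all 3 conditions. The log2 difference was -0.16 ± 0.05 in control, -0.38 ± 0.05 at 2 h and -0.27 ± 0.05 at 4 h (edgeR adjusted p = 0.0878, 1.06e-05 and 0.000368). Slc7a5 likewise had no overlap in any condition, and was lower in TTP-KO, with log2 differences of -0.21 ± 0.05 at 2 h and -0.35 ± 0.05 at 4 h (edgeR adjusted p = 0.014 and 2.28e-05), with -0.15 ± 0.05 in control (adjusted p = 0.163). The call at 2 h ended without replicate 1 of TTP-KO (0.106) or replicate 3 of WT (0.0878). Their partner chain Slc3a2 stood at -0.04 ± 0.04, -0.05 ± 0.04 and -0.05 ± 0.04 in the 3 conditions, none called (adjusted p = 0.762, 0.675 and 0.646). 

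Sesn2 had the largest genotype difference among the called members, -0.63 ± 0.08 at 4 h (edgeR adjusted p = 6.12e-06), with 39.2 ± 3.63 CPM in TTP-KO and 60.8 ± 2.44 CPM in WT (SD, n = 3). In control and at 2 h it was -0.18 ± 0.09 and -0.15 ± 0.09 (adjusted p = 0.385 and 0.442). Ppp1r15a was called lower in TTP-KO control cells (-0.30 ± 0.07, adjusted p = 0.0355), although its libraries overlapped there. That call ended without replicate 2 or 3 of TTP-KO (0.162 and 0.256) or of WT (0.0578 and 0.19), when only these groups were fitted (0.265), and with library totals alone (0.0817). Atf4 at 2 h was 0.17 ± 0.05 (adjusted p = 0.0608) with no overlap between genotypes, and was called with library totals alone (0.19, adjusted p = 0.0329).

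No member's response to antigen was called different between genotypes. Over all genes the interactions called 0.0497% for the response at 2 h, 0.689% for that at 4 h and 0.313% for the change between 2 h and 4 h. At an unadjusted p under 0.05 there were 4, 4 and 3 members of 30, against 6.61%, 10.6% and 9.13% of all genes. DESeq2 called 1 member in each of the 3, against 0.156%, 1.25% and 0.732% of all genes. The nearest were Sesn2, with -0.45 ± 0.12 for the response at 4 h and -0.48 ± 0.12 for the change between 2 h and 4 h (edgeR adjusted p = 0.0887 and 0.0881), and Ppp1r15a, with 0.41 ± 0.10 at 2 h (adjusted p = 0.249). Over 18 alternatives the adjusted p of Sesn2 ran between 0.0259 and 0.237 at 4 h and passed the threshold in 4, and between 0.0165 and 0.219 for the change between 2 h and 4 h and passed in 3. That of Ppp1r15a at 2 h ran between 0.00655 and 0.521 and passed in 3. The passes were with no filter and DESeq2 for all 3 values, without replicate 3 of TTP-KO at 4 h for both of Sesn2, and without replicate 1 of TTP-KO control for Sesn2 at 4 h and Ppp1r15a. The interaction for Slc7a11 at 2 h was -0.22 ± 0.07 (adjusted p = 0.447), and for Slc7a5 at 4 h -0.20 ± 0.07 (adjusted p = 0.257). The lower levels of these genes in TTP-KO are therefore not shown to depend on antigen.

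Markers of other cell types also differed between the genotypes. Of 10 genes marking neutrophils and their precursors, 5 were higher in TTP-KO in control, 7 at 2 h and 7 at 4 h, with summed levels per library between 1845 and 2515 CPM in TTP-KO and between 992 and 1533 CPM in WT. Of 6 B cell markers 5 were lower in TTP-KO in each condition, between 23.5 and 33.4 CPM in TTP-KO and between 53.0 and 69.0 CPM in WT. Of 5 tested dendritic cell markers 3 were lower in each condition, each time Cd74, H2-Ab1 and H2-Eb1, and the other tested ones were not called. The summed levels of that list lay between 2156 and 2417 CPM in TTP-KO and between 3188 and 3628 CPM in WT. Of 4 tested mast cell markers 2 were lower in each, between 119 and 137 CPM in TTP-KO and between 189 and 218 CPM in WT, with Mrgprb1 at 0 in every group. Of 8 monocyte and macrophage markers 2 were higher in TTP-KO in control, 3 at 2 h and 5 at 4 h, and 1 was lower in each, between 1679.9 and 1959.9 CPM in TTP-KO and between 1579.9 and 1677 CPM in WT. Of 10 basophil markers 1 was higher (Prss34) and 1 lower (Hdc) in TTP-KO in control. Prss34 alone was called at 2 h, again higher in TTP-KO. At 4 h 4 were lower (Gata2, Hdc, Mcpt8 and Ms4a2) and none higher. The part of these markers in the differences of Slc7a11, Slc7a5 and Sesn2 was not tested. In bulk samples, fewer cells of a type and less RNA per cell cannot be told apart. Across stimulation, 6 of 10 neutrophil markers and 7 of 10 basophil markers were lower at 4 h than in control in each genotype, and the other 3 basophil markers (Cd200r3, Hdc and Mcpt8) were higher. At 2 h 3 basophil markers were higher and 3 lower in TTP-KO, and 3 higher and 4 lower in WT, and no neutrophil marker was called in either genotype. The T and NK cell list, of which 2 of 5 genes could be tested, was higher after antigen through Nkg7, called at 2 h and 4 h in both genotypes, and Ncr1, called at 4 h in WT. Its summed level per library lay between 27.2 and 31.5 CPM in TTP-KO control, 51.0 and 55.9 CPM at 2 h and 35.3 and 42.6 CPM at 4 h, and in WT between 28.9 and 30.9 CPM, 55.5 and 58.1 CPM and 40.6 and 47.8 CPM, with Cd3g at 0 in WT at 2 h. None of the list was called between genotypes. Of 2 tested erythroid genes, Hba-a1 was lower in TTP-KO in control and at 4 h, and the summed levels lay between 13.8 and 26.5 CPM in TTP-KO and between 23.9 and 40.5 CPM in WT. The part of these lists in the changes of the members with antigen was not tested.

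Other genes of the same pathways were counted in 7 related lists, against the same background shares of all genes. At 2 h those shares were 17.8% higher in each genotype, and 16.6% lower in TTP-KO and 17.3% in WT. At 4 h they were 18.3% higher and 16.7% lower in TTP-KO, and 19.6% and 18.4% in WT. No list was tested against these shares. The list counts hold for TMM scaling. The counts at 2 h with library totals alone follow each list, and are to be read against the 8.65% of all genes higher and 45.9% lower in TTP-KO, and 9.1% and 45.6% in WT, under that scaling. Of 20 cytosolic aminoacyl-tRNA synthetases, which charge tRNAs with amino acids, 8 rose and 4 fell at 2 h in TTP-KO, and 9 rose and 2 fell in WT, at medians of 0.15 and 0.16. Library totals alone gave 3 up and 7 down in TTP-KO and 3 up and 9 down in WT. Aars1, the alanine enzyme, rose by 0.77 ± 0.09 in TTP-KO and 0.90 ± 0.09 in WT, and Cars1, the cysteine enzyme, by 0.77 ± 0.09 and 0.66 ± 0.09 (edgeR adjusted p at most 4.64e-08 in TTP-KO and 1.05e-06 in WT). At 4 h Cars1 was called lower than control in WT. That call ended without any 1 of the WT control libraries (-0.25, edgeR adjusted p between 0.0633 and 0.0782). Rars1, the arginine enzyme, rose at 4 h by 0.50 ± 0.11 and 0.80 ± 0.11. Of 22 tested genes among other reported ATF4 and CHOP targets, 6 rose and 3 fell at 2 h in TTP-KO, and 5 rose and 6 fell in WT (4 up and 11 down in TTP-KO and 4 up and 9 down in WT with library totals alone). At 4 h 6 rose and 11 fell in TTP-KO, and 7 rose and 10 fell in WT, at medians of -0.18 and -0.26. The oxidase Ero1a, which helps form disulfides in the endoplasmic reticulum, rose at 2 h by 1.41 ± 0.04 in TTP-KO and 1.505 ± 0.04 in WT. Ndrg1, a stress-responsive gene also induced by hypoxia, rose by 1.39 ± 0.05 and 1.37 ± 0.05, and the transcription factor Atf3 at 4 h by 1.40 ± 0.07 and 1.15 ± 0.07. In TTP-KO Ndrg1 was called lower than control at 4 h, a call that ended without replicate 2 of TTP-KO control (-0.13, edgeR adjusted p = 0.0926).

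Of 17 tested other amino acid transporters, 3 rose and 4 fell at 2 h in each genotype, or 2 and 11 with library totals alone. With TMM the share that rose was near the 17.8% of all genes, so this list is not shown to rise more than other genes. Slc38a1, which encodes the glutamine carrier SNAT1, rose by 1.57 ± 0.05 in TTP-KO and 1.80 ± 0.05 in WT (edgeR adjusted p = 3.53e-21 and 1.88e-22), and Slc7a6, another partner of CD98, by 0.86 ± 0.07 and 0.80 ± 0.07. The mitochondrial glutamate carrier Slc25a22 rose at 4 h by 0.57 ± 0.17 and 0.77 ± 0.17, with the TTP-KO call ending without replicate 1 of TTP-KO at 4 h (adjusted p = 0.0735). Of 22 tested genes of amino acid sensing by mTORC1, 7 rose and 6 fell at 2 h in TTP-KO, and 7 rose and 4 fell in WT, or 4 and 10 in TTP-KO and 4 and 9 in WT with library totals alone. Rptor, the raptor subunit of mTORC1, rose at 4 h by 1.58 ± 0.11 in TTP-KO and 1.41 ± 0.11 in WT. Fnip2, a folliculin partner, rose at 2 h by 0.98 ± 0.08 and 1.27 ± 0.08, and Depdc5, which restrains mTORC1 in the GATOR complex, was called lower at 2 h in TTP-KO alone (-1.28 ± 0.28), and its interaction with genotype was not called. At 4 h Fnip2 was called lower than control in WT. That call ended without replicate 2 or 3 of WT control (-0.23 and -0.13, edgeR adjusted p = 0.0684 and 0.292). Of 17 genes of eIF2 and eIF2B, 4 rose and 6 fell at 2 h in TTP-KO and 3 rose and 4 fell in WT, while with library totals alone none rose and 9 fell in TTP-KO and 11 in WT. They included Eif2ak1, the eIF2 kinase that responds to lack of haem, at -1.04 ± 0.11 and -0.999 ± 0.11, and at 4 h the eIF2 alpha subunit Eif2s1 at 0.61 ± 0.07 and 0.69 ± 0.07 and Eif2b3 at 0.86 ± 0.21 and 1.21 ± 0.21. Of 21 tested other one-carbon genes, 2 rose and 2 fell at 2 h in each genotype, smaller shares than over all genes, and 5 rose and 1 fell at 4 h in each. Library totals alone gave 1 up and 8 down at 2 h in TTP-KO and 1 up and 7 down in WT. At 4 h Mtrr, methionine synthase reductase, rose by 0.84 ± 0.15 in TTP-KO and 0.56 ± 0.15 in WT, and Gcsh, a glycine cleavage protein, by 0.82 ± 0.15 and 0.79 ± 0.15.

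Of 21 tested glutathione and other amino acid enzymes, 6 rose and 3 fell at 2 h in TTP-KO, and 5 rose and 5 fell in WT, or 3 and 12 in TTP-KO and 2 and 13 in WT with library totals alone. Ggct, which acts on gamma-glutamyl dipeptides, rose at 2 h by 2.83 ± 0.07 in TTP-KO and 2.85 ± 0.07 in WT (edgeR adjusted p = 1.58e-23 and 1.36e-23). Chac1, whose product cleaves glutathione itself, was not called at 2 h (0.27 ± 0.23 and 0.09 ± 0.24). Arg1, arginase 1, rose at 4 h by 3.43 ± 0.10 in TTP-KO and 2.75 ± 0.10 in WT (adjusted p = 1.23e-20 and 1.63e-18), and Ass1, argininosuccinate synthase, by 0.99 ± 0.19 and 0.87 ± 0.18. All the calls of named genes of the 7 lists at 2 h and 4 h over control given here were kept with library totals alone.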

How the data were processed

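Bulk RNA was sequenced in 18 libraries, 3 in each of 6 groups. The values the authors deposited are expected counts (estimated counts per gene, with decimals), not normalized. Tools named in the submitters' processing notes are STAR 2.7.10a, RSEM 1.3.1 and cutadapt 3.5, besides R 4.4.0 and 4.4.1, and the build is GRCm39; their roles are not given. The annotation release and the strand setting are not given in the sources used here, so reads of overlapping and antisense genes cannot be told apart. Columns with an unstimulated name were taken as control OVA.

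Counts were rounded to whole numbers and fitted with edgeR 4.0.16 in R 4.3.3: filterByExpr on the 6 groups (minimum count 10), TMM scaling, a mean per group with 12 residual degrees of freedom, robust quasi-likelihood F tests and Benjamini-Hochberg adjustment over all 14076 genes at 0.05. The SE of a log2 fold change is its absolute value over the root of F. CPM use TMM-scaled library sizes. The 12 contrasts were 3 of genotype, 6 of stimulus or time and 3 interactions. The biological coefficient of variation was 0.0905. An exact permutation test of 3 libraries with 3 cannot give a p below 0.1. No libraries of a group were copies (chi-square per degree of freedom between 3.05 and 7.34 over 18 pairs). The code was tested on simulated data.

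The members, roles, related lists and marker lists were chosen with earlier results of these data known. Members got values in every library where called between genotypes or among the 3 largest rises or falls over control, and lists up to 3 genes with the largest changes, plus those called between genotypes. A gene of the related lists that this rule names is not reported here. Atf4, Trib3, Asns and members given by group means were picked after their values were seen. The alternatives were RLE scaling, no filter, DESeq2 1.42.0, a replicate block, only the groups compared and leaving out each library, and, added after seeing the data, library totals alone; for genes of the related lists, library totals alone and leaving out each library were both added after seeing the data. The promoter sequences are from RefSeq (GRCm38.p6), a different build from that of the counts.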

Additional observations from a re-analysis of the deposited data

Results flagged for a closer look

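Sesn2 changed in opposite directions between 2 h and 4 h. All 3 TTP-KO libraries at 4 h (36.7 to 43.3 CPM) lay below the TTP-KO libraries at 2 h (45.1 to 50.3 CPM), while all 3 WT libraries at 4 h (58.1 to 62.9 CPM) lay above those at 2 h (51.0 to 55.1 CPM). The change was -0.28 ± 0.09 in TTP-KO (edgeR adjusted p = 0.0146) and 0.20 ± 0.08 in WT (adjusted p = 0.0606, or 0.028 with no filter and 0.0362 with only the groups compared). With library totals alone it was -0.08 in TTP-KO (adjusted p = 0.516) and 0.40 in WT (adjusted p = 0.000242), and the TTP-KO call also ended without replicate 1 of TTP-KO at 2 h (0.0762) or replicate 1 or 2 of TTP-KO at 4 h (0.0853 and 0.0576). The difference of the changes, TTP-KO minus WT, was -0.48 ± 0.12 on the log2 scale and missed the threshold (edgeR adjusted p = 0.0881). Over 18 alternatives that adjusted p ran between 0.0165 and 0.219 and passed the threshold in 3.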

How the results depend on the processing

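Of 1200 recomputed values for the named members, 1150 kept their direction and their side of the threshold, 37 lost a call, 10 gained one and 3 reversed. All 3 reversals came with library totals alone: Ddit4 at 2 h over control in TTP-KO (-0.19), and the change of Slc3a2 between 2 h and 4 h in TTP-KO (0.0034) and in WT (0.0011). Of the member counts, the genotype difference in control was 0 with only the groups compared and with library totals alone, and 0 to 1 without 1 library; at 2 h it was 1 to 2 without 1 library. Each interaction count was 1 with no filter and 1 with DESeq2, and 0 to 1 without 1 library. Library totals alone also changed the split of all genes, where 1218 were higher and 6458 lower at 2 h in TTP-KO, against 2510 and 2342 with TMM, and 1281 and 6415 in WT, against 2512 and 2432. At 4 h the splits were 1635 and 3559 in TTP-KO, against 2577 and 2355, and 1879 and 3718 in WT, against 2758 and 2592. Between 2 h and 4 h they were 4636 and 1237 in TTP-KO, against 2050 and 2284, and 4614 and 1191 in WT, against 2140 and 2242. Between genotypes they were 100 and 125 in control, against 58 and 174, and 147 and 194 at 2 h, against 128 and 265. All-gene counts between genotypes in control were 399 with no filter and 149 with only these groups, against 232, and at 4 h 1130 with only these groups, against 735. Interaction counts of 7, 97 and 44 genes became 55, 259 and 134 with no filter and 22, 176 and 103 with DESeq2, and the first became 11 with only the groups compared. Without 1 library the all-gene counts between genotypes were 145 to 190 in control, 228 to 369 at 2 h and 466 to 551 at 4 h, and the interaction counts 4 to 8, 46 to 133 and 25 to 53. Replicate numbers did not pair the libraries: 1 of 27 correlations between same-numbered libraries exceeded 0.1, and 6 of 18 libraries correlated best with their own number. With the number as a replicate block, 257, 399 and 746 genes differed between genotypes, against 232, 393 and 735, and 1, 2 and 3 members, as without it; the fall of Eif2ak3 at 2 h in WT was the only named value to lose its call (adjusted p = 0.0524). The tested members with the fewest estimated counts over all libraries were Pycr1 (106), Slc1a4 (289) and Gpt2 (549.9), and 3 members were below the filter.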

Other observations

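Genes outside the members differed between genotypes in how they responded at 4 h. Arg1, arginase 1, was 0.64 ± 0.08 higher in TTP-KO at 4 h on the log2 scale, and its response at 4 h was larger in TTP-KO by 0.68 ± 0.15 (edgeR adjusted p = 0.0223). Glul, glutamine synthetase, was 0.38 ± 0.06 higher in TTP-KO at 4 h, with an interaction of 0.39 ± 0.08 (adjusted p = 0.0163). The amino acid carrier Slc7a8 was lower in TTP-KO at 4 h (-0.18 ± 0.04, interaction -0.29 ± 0.06, adjusted p = 0.0198). The interaction of the threonine tRNA synthetase Tars1 was -0.54 ± 0.13 (adjusted p = 0.0484). Other genes of the related lists called between genotypes at 4 h were Rptor (0.40 ± 0.09), Castor2 (0.98 ± 0.26), Slc43a2 (0.26 ± 0.06), Atf3 (0.26 ± 0.07), Ndrg1 (-0.23 ± 0.05), Pck2 (0.42 ± 0.12) and Ggct (-0.25 ± 0.06). At 2 h they were Gdf15, a stress-induced cytokine (0.88 ± 0.22, adjusted p = 0.0226), Gsr, glutathione reductase (0.19 ± 0.04), and Ero1a (-0.19 ± 0.04). In control cells Odc1, ornithine decarboxylase (-0.31 ± 0.07), and the autophagy genes Map1lc3b (-0.25 ± 0.05) and Sqstm1 (-0.21 ± 0.05) were lower in TTP-KO. The calls of Arg1 and Glul at 4 h and Ero1a at 2 h were kept when any 1 library was left out. Each of the others ended without at least 1. At 4 h these were Rptor (replicate 2 of TTP-KO or of WT, adjusted p up to 0.0672), Castor2 (replicate 2 of TTP-KO, 1 or 3 of WT, up to 0.199), Slc43a2 (2 of TTP-KO, 1 of WT, up to 0.0968), Atf3 (1 of TTP-KO, 1 or 2 of WT, up to 0.084), Ndrg1 (2 of WT, 0.0554), Pck2 (1 or 3 of TTP-KO, 2 or 3 of WT, up to 0.196), Ggct (1 or 3 of TTP-KO, 2 of WT, up to 0.145) and Slc7a8 (3 of TTP-KO or of WT, up to 0.095). At 2 h they were Gdf15 (2 or 3 of TTP-KO or of WT, up to 0.194) and Gsr (3 of TTP-KO, 1 of WT, up to 0.119). In control they were Odc1 (3 of TTP-KO or of WT, up to 0.106), Map1lc3b (2 of TTP-KO or of WT, up to 0.0888) and Sqstm1 (2 of TTP-KO, 1 or 3 of WT, up to 0.136), and the call of Sqstm1 also ended with library totals alone (0.0901). The interactions at 4 h ended as well. For Glul this took replicate 2 of WT control or 2 or 3 of WT at 4 h (up to 0.0738), and for Slc7a8 replicate 2 of TTP-KO control, 2 or 3 of TTP-KO at 4 h, 1 of WT control or 2 or 3 of WT at 4 h (up to 0.0785). For Arg1 it took any replicate of TTP-KO control, 1 or 2 of TTP-KO at 4 h, 3 of WT control or 1 or 2 of WT at 4 h (up to 0.0712), and for Tars1 replicate 1 or 2 of TTP-KO control or of TTP-KO at 4 h, or any of WT control or of WT at 4 h (up to 0.16). Markers of neutrophils and B cells given above, and Cd74, H2-Ab1 and H2-Eb1 of the dendritic cell list, differed between the same libraries. Their part in these values was not tested.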
